A study of Mus musculus with 24 samples.

Results

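Expression was compared between R1 mouse embryonic stem (ES) cells carrying the hairpin shCdk8-1 and R1 cells carrying the control hairpin shNTC, both harvested 8 days after infection. These were 6 of the 24 arrays of the series, 3 for each hairpin, taken by the hairpin, replicate and day in the array titles. R1 is an established mouse ES cell line, and every culture had been infected with lentivirus that delivers a short hairpin RNA, so the shNTC cells carried a vector too. The series also profiled a second Cdk8 hairpin, shCdk8-2, on day 8, both Cdk8 hairpins and shNTC on day 13, and Med12 hairpins on day 13. The design calls the 3 arrays of a group biological replicates but does not say whether infections were separate, so a p-value here reflects only array-to-array spread. The hairpin sequences are not given in the sources used here. On every array the Cy5 channel held RNA of the cells and the Cy3 channel a universal mouse reference RNA pooled from several cell lines, so each value is a log2 ratio of Cy5 over Cy3 and has meaning only against the same gene in another sample.

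CDK8 is the cyclin-dependent kinase of Mediator, the multiprotein complex that carries signals from transcription factors to RNA polymerase II. With cyclin C, MED12 and MED13 it forms a kinase module that binds the core complex reversibly, and the paralogous kinase CDK19 can take its place in that module. The module is known both to repress and to activate genes, among them targets of the WNT, Notch and SMAD pathways. ES cells self-renew in culture, and they can leave the naive state of the early blastocyst for the primed state of the later epiblast or give rise to cells resembling primitive endoderm.

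The 6 arrays gave comparable signals, with 65.4% to 76.1% of the spots well above background in Cy5 and no saturated spot. Array values correlated at 0.988 to 0.991 within shCdk8-1, 0.9929 to 0.9935 within shNTC and 0.976 to 0.981 between the groups, over 22394 genes. On shCdk8-1 replicate 1, 4 Cy5 spots and 4 Cy3 spots lay more than 100 units below their local background, the lowest at -1718 in Cy5 and -6385.5 in Cy3. When the background model was fitted on all spots, its spread on that array was 42.8 in Cy5 and 138 in Cy3, and its log ratios had a slope of 0.806 on those of the other shCdk8-1 arrays. With outlying spots kept out of the model, as was done for all values below, the slope was 0.971. The shCdk8-1 arrays lay on slides 4 to 6 and the shNTC arrays on slides 1 to 3, so no slide held both groups, and slide enters only through a fit of all 24 arrays with slide as a block. Of 9 measured ES cell markers, 9 were well above background on all 6 arrays, and their mean log2 ratio was 5.54 to 5.73 in shCdk8-1 arrays and 5.86 to 5.97 in shNTC arrays, far above the reference RNA.

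The targeted transcript was lower in every shCdk8-1 array. Cdk8, on chromosome 5, had log2 ratios of -1.49, -1.34 and -1.06 in shCdk8-1 arrays, against -0.57, -0.42 and -0.56 in shNTC arrays. The means were -1.30 ± 0.22 in shCdk8-1 cells and -0.51 ± 0.08 in shNTC cells (SD, n = 3 each). Replicate 3 was the shCdk8-1 array nearest to the controls, but the groups did not overlap. Cdk8 fell by 0.78 on the log2 scale (SE 0.08, adjusted p = 5.6e-07), which leaves 58.1% of the shNTC level, and a further Cdk8 probe fell by 0.39. With slide as a block the fall was 0.53 (adjusted p = 0.0083).

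With the probes used, no other member of the kinase module was called lower. Med12, which activates the kinase, was at -0.66, -0.59 and -0.61 in shCdk8-1 arrays and at -0.88, -0.86 and -0.79 in shNTC arrays. The groups were apart and Med12 rose by 0.22 (adjusted p = 0.044), a call that was lost in 10 of 20 alternative settings, among them slide as a block (adjusted p = 0.20). Cdk19, the paralogous kinase gene, differed by -0.13 and was not called (adjusted p = 0.19). With the Cy5 channel alone Cdk19 was called higher instead (0.33, adjusted p = 0.031), so its direction depends on the setting. Cyclin C (Ccnc) differed by 0.04 with the probe used and by -0.29 with a further probe (adjusted p = 0.023), so its direction is not settled. Med13l, a paralog of MED13 in the same module, differed by -0.12 (adjusted p = 0.36). Among 23 measured subunits of the core complex, 3 were called higher and 1 lower: Med22 (0.31), Med25 (0.19), Med24 (0.19) and Med11 (-0.24). The 3 higher calls were lost under both slide as a block and median centring instead of loess.

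**Figure D1:**
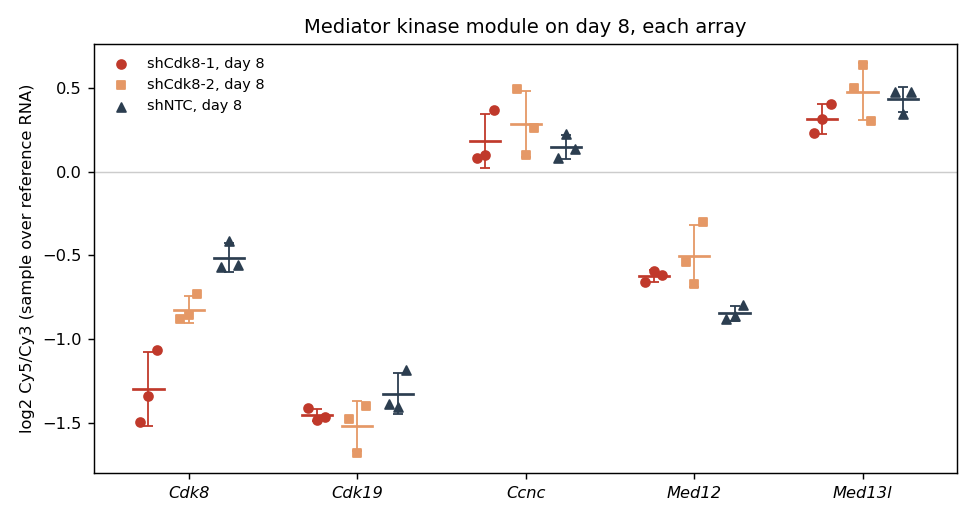
Log2 Cy5/Cy3 of the 5 measured Mediator kinase module genes on each day 8 array, with shCdk8-1 (circles), shCdk8-2 (squares) and shNTC (triangles); horizontal lines are means and bars the SD over 3 arrays. For Cdk8 the 3 shCdk8-1 arrays lie between -1.49 and -1.06, below all shCdk8-2 and shNTC arrays.

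Many genes differed between the hairpins, and nearly all by little. Of 22394 genes tested, 2373 (10.6%) were called higher and 2444 (10.9%) lower with shCdk8-1, where called means an adjusted p under 0.05 in limma's moderated test. In all, 21.5% of genes were called, and the median absolute log2 change of the called genes was 0.30. Changes under 0.5 on the log2 scale made up 85.6% of the calls. At least 2-fold changes were found for 41 genes higher (0.183%) and 12 lower (0.0536%). The 3 shCdk8-1 arrays all lay above the 3 shNTC arrays for 3992 genes (17.8%) and all below for 4122 (18.4%). The number of calls depends on the slide and on the normalization: it was 1962 with slide as a block, 1089 higher (4.86%) and 873 lower (3.9%), and 1683 with median centring, 627 higher (2.8%) and 1056 lower (4.72%). Counts of list members under these settings are read against those shares, and counts in the fit reported here against 10.6% higher and 10.9% lower. The median change over all genes was 0.004.

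The largest increases included a muscle adaptor, neural genes and developmental regulators. Stac3, an adaptor needed for coupling excitation to contraction in muscle, was at 1.29, 0.95 and 1.36 in shCdk8-1 arrays and at -0.72, -0.87 and -0.84 in shNTC arrays. The groups were far apart, and Stac3 rose by 2.01 (SE 0.10, adjusted p = 3.3e-12), or 4.03-fold. Prickle1, a planar cell polarity gene, was at 1.54, 1.53 and 1.50 in shCdk8-1 arrays and at -0.27, -0.27 and -0.21 in shNTC arrays, a rise of 1.78, while a further probe for it differed by 0.24 (not called). Btbd17, a BTB domain gene, rose by 1.75, with values of 2.29, 2.43 and 2.45 in shCdk8-1 arrays and 0.54, 0.78 and 0.59 in shNTC arrays. Acss1, a mitochondrial acetyl-CoA synthetase, rose by 1.65, Glod5, a glyoxalase domain gene, by 1.54, and Nsg2, a neuronal vesicle protein, by 1.53.

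Hes6, a member of the HES family that promotes neurogenesis, followed. Its log2 ratios were 1.55, 1.61 and 1.56 in shCdk8-1 arrays and 0.13, 0.12 and 0.09 in shNTC arrays, a rise of 1.46 (SE 0.05, adjusted p = 5.5e-15), and a further probe rose by 1.40. The WNT ligand gene Wnt8a rose by 1.35 and the zinc finger factor gene Sall2 by 1.31. Gprc5b, an orphan receptor gene, rose by 1.27, and the Notch ligand gene Dll1 by 1.26. The protease gene Tmprss5 rose by 1.26 and Id2, an inhibitor of basic helix-loop-helix factors, by 1.24. The set is completed by Tmem145, a membrane protein gene (1.21), and Fgf5, a growth factor of the primed epiblast (1.20). All of the 15 were called with slide as a block as well, with changes between 1.09 and 2.16. With both the Feature Extraction ratio and the authors' table, Wnt8a, Tmprss5 and Nsg2 were no longer called, and with the background fitted on all spots Nsg2 and Fgf5 were not.

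The largest decreases included genes of the oocyte, of blood clotting and of membrane transport. Khdc3, a subunit of the subcortical maternal complex of the oocyte, was at 4.46, 4.40 and 4.34 in shCdk8-1 arrays and at 5.67, 5.75 and 5.75 in shNTC arrays. It fell by 1.32 (SE 0.09, adjusted p = 8.6e-10). F3, the gene of tissue factor, was at -2.48, -2.60 and -2.31 in shCdk8-1 arrays and at -1.11, -1.16 and -1.20 in shNTC arrays, and fell by 1.31. Reep4, a gene of endoplasmic reticulum shaping in mitosis, was at -1.60, -1.69 and -1.48 in shCdk8-1 arrays and at -0.54, -0.51 and -0.44 in shNTC arrays, and fell by 1.09. The groups did not overlap for any of these 3 genes. The riboflavin transporter gene Slc52a3 fell by 1.01, the retinol carrier gene Rbp4 by 1.01, and the endoderm factor gene Sox7 by 0.99. The sodium/proton exchanger gene Slc9b2 fell by 0.91 and the PDZ domain gene Pdzd3 by 0.90. The Slc9b2 call was lost with both the Feature Extraction ratio and the authors' table. The serine protease gene Prss23 fell by 1.08 with the probe used, but a further probe differed by 0.13 (not called).

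Kcnj4, Tatdn2 and U2af1, also among the 15 lowest, are less secure. The potassium channel gene Kcnj4 was at -0.42, -0.71 and 0.40 in shCdk8-1 arrays and at 1.11, 1.03 and 0.84 in shNTC arrays, and its fall by 1.24 was not shared by a further probe (-0.08). The splicing factor gene U2af1 was at 0.22, -0.03 and 1.10 in shCdk8-1 arrays and at 1.25, 1.37 and 1.31 in shNTC arrays. In both, shCdk8-1 replicate 3 stood much nearer to the controls than replicates 1 and 2. The arginine methyltransferase gene Prmt1 (0.13, -0.05 and 1.33 in shCdk8-1 arrays, against 1.23, 1.30 and 1.15 in shNTC arrays) had the same order of arrays. With slide as a block the calls were lost for Kcnj4 (adjusted p = 0.10), Tatdn2 (adjusted p = 0.17), U2af1 (adjusted p = 0.36) and Prmt1 (adjusted p = 0.57), though all 30 of the highest and lowest genes kept their direction.

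**Figure D2:**
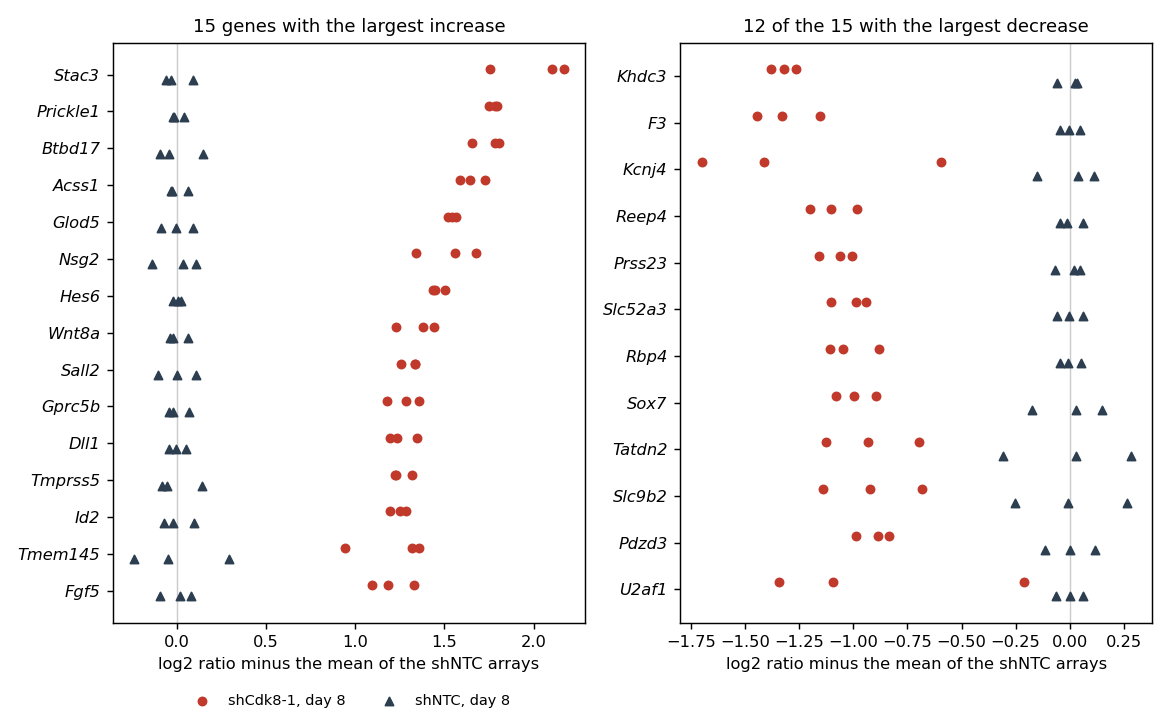
The 15 called genes with the largest increase (left) and 12 of the 15 with the largest decrease (right), each array's log2 ratio minus the mean of the 3 shNTC arrays, for shCdk8-1 (circles) and shNTC (triangles) on day 8. The groups do not overlap, as the choice of genes required, and replicate 3 separates from the other shCdk8-1 arrays for Kcnj4 and U2af1.

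Of 35 measured neural and neuronal genes, 16 were called higher, 1, Mapt (-0.40), lower and 18 not called, against 10.6% higher and 10.9% lower of all genes, and the list's median change was 0.14. After Btbd17, Hes6 and Dll1, the largest rises were those of the Notch ligand gene Dll3 (1.16), the synaptic gene Cplx2 (1.10), the homeobox gene Meis2 (1.03), the zinc finger gene Zic1 (0.89), the neural progenitor filament gene Nes (0.84), the microtubule gene Map2 (0.83) and the neurogenic factor gene Neurod1 (0.68). Nes was at -0.43, -0.43 and -0.46 in shCdk8-1 arrays and at -1.22, -1.30 and -1.34 in shNTC arrays, and the groups were far apart. The proneural and early neural genes Neurog2 (0.10), Pax6 (0.13), Sox1 (-0.07) and Tubb3 (0.09) were not called. In the fit with slide as a block, 13 members were higher and none lower, and with median centring 11 were higher and 1 lower.

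The Notch pathway list overlaps that one in Hes6, Dll1, Dll3 and Hes5. Notch receptors are activated by Delta and Jagged ligands on the neighbouring cell, and the released receptor fragment turns the DNA-binding protein RBPJ into an activator of genes such as Hes5 and Nrarp. Of 30 measured members 13 were called higher and 4 lower, with a median of 0.18. Among the ligands, Dll1 was at 3.83, 3.79 and 3.94 in shCdk8-1 arrays and at 2.55, 2.65 and 2.59 in shNTC arrays, Dll3 rose by 1.16 and Jag1 by 0.76, while Dll4 (0.14) and Jag2 (-0.16) were not called. Among the receptors, Notch1 rose by 0.35 and Notch3 by 0.18, while Notch2 (-0.0004) and Notch4 (-0.05) were not called. Of the target genes, Nrarp was at 1.40, 1.29 and 1.65 in shCdk8-1 arrays and at 0.85, 0.69 and 0.74 in shNTC arrays (adjusted p = 4.8e-05), Hes5 rose by 0.58 and Hey1 by 0.25. Hes1 differed by 0.24 and was not called (adjusted p = 0.063). The ubiquitin ligase gene Dtx4 rose by 0.87 and the glycosyltransferase gene Mfng by 0.46. The lower genes were Rbpj itself (-0.48), its coactivator Maml1 (-0.30), the Notch inhibitor Numb (-0.27) and the protease subunit gene Psen2 (-0.16). The fit with slide as a block called 9 higher and 1 lower, and median centring 8 and 1.

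Hes5 is shown with its promoter because it was the raised Notch member whose window, 250 bases before to 50 bases after the gene start, held the RBPJ core TGGGAA on either strand. The window lies on the plus strand at chr4:154960673-154960972 (RefSeq, GRCm38.p6), and the capitals mark 2 matches, which begin at -226 and -82 bases relative to the gene start.
Hes5: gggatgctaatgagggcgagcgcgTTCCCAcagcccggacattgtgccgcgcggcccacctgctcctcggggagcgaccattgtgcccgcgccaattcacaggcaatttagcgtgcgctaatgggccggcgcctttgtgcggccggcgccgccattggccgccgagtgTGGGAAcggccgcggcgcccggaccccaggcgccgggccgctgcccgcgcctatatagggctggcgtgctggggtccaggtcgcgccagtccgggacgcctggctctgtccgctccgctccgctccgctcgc
The same core occurs in 25.6% of all 32851 windows, and in 1 of the 9 raised Notch members with a window, so its presence is a description and not a site. Hes5 had log2 ratios of 0.85, 0.98 and 1.02 in shCdk8-1 arrays and 0.58, 0.21 and 0.32 in shNTC arrays (adjusted p = 7.0e-05).

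Of 24 measured genes of the primed epiblast, 12 were called higher and 4 lower, against 10.6% higher and 10.9% lower of all genes. Their median change was 0.26, the highest among the 26 lists. With slide as a block 8 were higher and none lower, against 4.86% and 3.9% of all genes, and with median centring 7 were higher and 3 lower. Sall2 was at 1.47, 1.55 and 1.55 in shCdk8-1 arrays and at 0.11, 0.32 and 0.21 in shNTC arrays. Fgf5 was at 2.48, 2.72 and 2.57 in shCdk8-1 arrays and at 1.41, 1.47 and 1.30 in shNTC arrays. Both genes lay clear of the controls on every array. The kinase gene Pim2, which also stands in the pluripotency list, rose by 1.16 and a further probe by 1.15, Lef1 by 0.69, the homeobox gene Otx2 by 0.34, Pou3f1 by 0.33 and the DNA methyltransferase gene Dnmt3b by 0.28. Zic2 rose by 0.72, but its call was lost in 4 of 20 settings, among them slide as a block (adjusted p = 0.15). The members called lower were the carbonic anhydrase gene Car4 (-0.43), the claudin gene Cldn6 (-0.39), Bex1 (-0.32) and the ETS factor gene Etv4 (-0.29).

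The naive and general pluripotency list leaned the other way. Of 38 measured genes 4 were called higher and 11 lower, with a median of -0.12. The T-box gene Tbx3 was at 2.47, 2.42 and 2.32 in shCdk8-1 arrays and between 3.07 and 3.20 in shNTC arrays, and fell by 0.72 (adjusted p = 3.2e-07). Pou5f1, the gene of OCT4, was at 5.66, 5.71 and 6.16 in shCdk8-1 arrays and at 6.52, 6.58 and 6.37 in shNTC arrays. It fell by 0.64 (adjusted p = 0.022), a call that was lost with slide as a block (-0.22, adjusted p = 0.53) and without shCdk8-1 replicate 1 or 2 or shNTC replicate 1 or 2. The nuclear receptor gene Nr5a2 (-0.50), the RNA-binding protein gene Lin28a (-0.50) and the chromatin factor gene Utf1 (-0.49) also fell. Sox2 (0.05), Klf4 (-0.11), Zfp42 (-0.14), Esrrb (-0.24) and Myc (-0.14) were not called, and the sign of the Sox2 difference changes with the setting. The higher members were Pim2, the NODAL antagonists Lefty2 (0.68) and Lefty1 (0.35), and the maternal factor gene Dppa3 (0.63). The Dppa3 call was lost in 4 of 20 settings, among them slide as a block (adjusted p = 0.10) and the background fitted on all spots (0.05), and the Lefty2 call in 3. Slide as a block left 3 calls higher and 3 lower.

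Of 35 measured primitive endoderm genes, 16 were called lower, 2 higher and 17 not called, with a median of -0.20. With slide as a block 13 were lower and 2 higher, against 3.9% and 4.86% of all genes. Sox7 was at 0.38, 0.29 and 0.48 in shCdk8-1 arrays and at 1.52, 1.40 and 1.20 in shNTC arrays. Gata6, a master regulator of the lineage, was at -1.78, -1.99 and -2.03 in shCdk8-1 arrays and at -1.25, -1.30 and -1.13 in shNTC arrays, and fell by 0.71 (adjusted p = 1.1e-06), while further Gata6 probes differed by -0.29 and -0.15 (neither called). The groups were apart for both genes. The WNT antagonist Dkk1 fell by 0.75, the endocytic adaptor gene Dab2 by 0.61, Sox17 by 0.55, the keratin genes Krt8 by 0.57 and Krt18 by 0.52, Pdgfra by 0.43, the basement membrane gene Col4a1 by 0.41 and Sparc by 0.29. The Dkk1 call was lost with both the Feature Extraction ratio and the authors' table. The higher members were Foxa2 (0.53), a forkhead factor of endoderm, and the water channel gene Aqp8 (0.56). Gata4 (-0.06) and Lama1 (0.03) were not called.

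Trophectoderm genes were called lower for 7 of 21 and higher for 1, Id2, with a median of -0.15. The lower ones include Krt8 and Krt18, which were counted in the primitive endoderm list too. The connexin gene Gjb5 (-0.87) and the homeobox gene Esx1 (-0.58) fell, while Cdx2 (-0.17), Eomes (-0.20) and Ascl2 (-0.13) were not called. Of 28 germ line and oocyte genes 6 fell and 1 rose. Beside Khdc3 these included the sperm lactate dehydrogenase gene Ldhc (-0.59) and the zona pellucida gene Zp3 (-0.35). The Zp3 call was lost with slide as a block (-0.16, adjusted p = 0.55), and a further Zp3 probe differed by -0.17 (not called). Of 17 genes of the 2-cell-like state, a rare transcriptional state of ES cells, 5 fell and 1 rose, against 10.9% and 10.6% of all genes. With slide as a block 1 was lower and none higher, against 3.9% and 4.86% of all genes. Median centring left 3 lower and none higher, against 4.72% and 2.8%. Zscan4c was at 7.29, 7.36 and 7.94 in shCdk8-1 arrays and at 8.14, 8.30 and 7.95 in shNTC arrays, and its fall by 0.60 was lost with slide as a block (adjusted p = 0.55). Of 26 mesoderm and primitive streak genes 3 rose and 2 fell, shares near the 10.6% and 10.9% of all genes. The ligand gene Bmp4 (-0.69) was among the lower ones and Wnt3 (0.43) among the higher ones, but the Wnt3 call was lost in 7 of 20 settings, among them slide as a block (adjusted p = 0.19).

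In the NODAL, BMP and TGF-beta pathway 15 of 46 genes were called higher and 6 lower, with a median of 0.06. The rises were led by the ID genes, which BMP signals are known to induce. Id2 was at -1.09, -1.12 and -1.18 in shCdk8-1 arrays and at -2.45, -2.40 and -2.28 in shNTC arrays, and rose by 1.24 (adjusted p = 3.3e-12). Id4 was at 1.78, 1.64 and 1.63 in shCdk8-1 arrays and at 0.79, 0.55 and 0.59 in shNTC arrays, and rose by 1.04, with 0.31 at a further probe. All 4 ID genes were higher on every array, Id1 by 0.47 and Id3 by 0.25. The ligand gene Bmp4 was at -1.23, -1.25 and -1.24 in shCdk8-1 arrays and at -0.55, -0.55 and -0.56 in shNTC arrays. Inhbb, a subunit of activin, fell by 0.67 and the signal transducer gene Smad2 by 0.38, while Smad3 (0.34), Smad4 (0.23) and Smad5 (0.33) rose. Slide as a block left 9 calls higher and 4 lower, and median centring 5 and 4.

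Of 30 WNT targets and feedback genes 9 rose and 3 fell, with a median of 0.05 that changed sign under 4 of 20 settings. Wnt8a was at 2.52, 2.67 and 2.74 in shCdk8-1 arrays and at 1.36, 1.27 and 1.25 in shNTC arrays. The target genes Sp8 (0.95) and Lef1 (0.69) and the receptor gene Fzd2 (0.56) rose, while Axin2 (0.09), a general read-out of the pathway, and the primitive streak gene T (-0.10) were not called. Of 44 immediate early and ERK feedback genes 8 rose and 9 fell, against 10.6% and 10.9% of all genes, and with median centring 1 rose and 7 fell. Ccn2, a growth factor target, was at -0.83, -0.79 and -0.78 in shCdk8-1 arrays and at -0.12, -0.08 and -0.09 in shNTC arrays, and fell by 0.70. Phlda1 (-0.57), Hbegf (-0.55), Nr4a1 (-0.53) and Egr1 (-0.51) fell too, while Ier5 (0.66) and the ERK inhibitor genes Spry4 (0.54) and Dusp6 (0.47) rose, and Fos (-0.19) and Jun (-0.06) were not called.

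In the unfolded protein response of the endoplasmic reticulum 7 of 29 genes rose and none fell at an adjusted p under 0.05 in limma, with a median of 0.09. Herpud1, an adaptor of protein degradation there, was at -1.97, -2.07 and -2.04 in shCdk8-1 arrays and at -2.90, -2.76 and -2.96 in shNTC arrays, and rose by 0.84 (adjusted p = 5.7e-09). The chaperone gene Hsp90b1 rose by 0.34, the degradation gene Derl3 by 0.32, Selenos by 0.29 and the transcription factor gene Xbp1 by 0.28. The calls for Hsp90b1, Derl3 and Selenos were lost with median centring (adjusted p = 0.27, 0.29 and 0.41), which left 1 call in the list. That of Derl3 was lost with slide as a block too (adjusted p = 0.16). Of 40 amino acid stress targets of ATF4 8 rose and none fell in limma, led by the hormone gene Stc2 (0.59), the glycine transporter gene Slc6a9 (0.47) and the serine pathway gene Shmt2 (0.37), with a median of 0.03. With slide as a block 3 were higher and with median centring 2, where the list's median was -0.05, and the Shmt2 call was lost under both.

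Hsp90b1 and Derl3 are shown with their promoters because these were the raised members of that list whose windows held the endoplasmic reticulum stress element, CCAAT and CCACG with 9 bases of any kind between them on either strand, a site known to be bound by ATF6 with NF-Y. The capitals mark its fixed bases. The Hsp90b1 window lies on the minus strand at chr10:86705395-86705694 and has 2 matches, at -212 and -107 bases relative to the gene start, and the Derl3 window on the plus strand at chr10:75893148-75893447 has 1, at -156 (RefSeq, GRCm38.p6).
Hsp90b1: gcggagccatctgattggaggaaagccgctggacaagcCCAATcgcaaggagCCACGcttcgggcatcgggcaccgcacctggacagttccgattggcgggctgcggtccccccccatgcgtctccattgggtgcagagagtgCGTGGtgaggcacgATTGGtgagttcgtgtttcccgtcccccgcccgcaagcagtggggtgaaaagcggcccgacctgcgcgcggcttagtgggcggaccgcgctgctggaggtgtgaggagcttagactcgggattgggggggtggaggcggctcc
Derl3: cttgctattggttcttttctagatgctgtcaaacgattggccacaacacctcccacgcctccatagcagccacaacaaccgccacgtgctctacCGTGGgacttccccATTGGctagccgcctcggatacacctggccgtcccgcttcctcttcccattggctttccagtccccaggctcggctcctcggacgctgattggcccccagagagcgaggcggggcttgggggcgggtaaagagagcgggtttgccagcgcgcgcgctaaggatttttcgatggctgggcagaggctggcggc
The element occurs in 0.119% of all windows, in 9 of the 25 measured list members that have a window and in 2 of the 6 raised ones. Hsp90b1 was at -1.11, -1.25 and -1.41 in shCdk8-1 arrays and at -1.68, -1.58 and -1.52 in shNTC arrays, and Derl3 at 0.06, 0.18 and 0.18 in shCdk8-1 arrays and -0.24, -0.20 and -0.10 in shNTC arrays. The groups did not overlap for either gene.

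Among interferon response genes 13 of 49 rose and 5 fell, with a median of 0.15. The immunoproteasome gene Psmb8 was at -3.77, -3.93 and -4.08 in shCdk8-1 arrays and at -4.55, -4.65 and -4.95 in shNTC arrays, and rose by 0.79. Gbp2 rose by 0.63 and the transcription factor gene Irf1 by 0.56, while the RNA sensor gene Ddx58 fell by 0.70. Psmb9, like Psmb8 an immunoproteasome gene, was called lower. Slide as a block left 6 calls higher and 2 lower, and median centring 5 and 1. Of 37 p53 targets 9 rose and 3 fell, led by Gadd45g, a growth arrest gene that was at 0.05, 0.04 and 0.02 in shCdk8-1 arrays and at -0.91, -0.90 and -0.90 in shNTC arrays. Gadd45a rose by 0.52 and the death gene Bbc3 by 0.40. With median centring 2 p53 targets were higher and none lower, the list's median was -0.02 and Bbc3 was not called.

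Of 43 cholesterol and fatty acid genes 10 rose and 3 fell, among them the synthesis genes Sqle (0.44) and Cyp51 (0.43), whose calls were lost with median centring (adjusted p = 0.057 and 0.087), where 1 member was higher and 1 lower. Further Cyp51 probes differed by 0.10 and 0.23 (neither called). Of 39 glycolysis and hypoxia genes 7 rose and 4 fell, and with median centring 1 rose and 4 fell. Egln3, the oxygen sensor gene, rose by 0.48, and Vegfa fell by 0.57 with the probe used, while further Vegfa probes differed by -0.26 and by -0.06 (the last not called, adjusted p = 0.64). Among 53 cell cycle genes 7 rose and 5 fell, near the shares of all genes, with a rise of Ccnd1 (0.43) and Rrm2 (0.45) and a fall of Ccnd3 (-0.50). Of 23 measured replication-dependent histone genes 7 fell and none rose, led by H2bc4 (-0.87), and such genes share near-identical copies, so a probe may read several of them. Of 47 MYC targets and ribosome biogenesis genes 3 rose, led by Mycl (0.79), and 7 fell. Of 34 imprinted genes 7 rose, among them the growth inhibitor gene Cdkn1c (0.49) and Peg12 (0.57), and 4 fell, led by the growth factor gene Igf2 (-0.60). Of 11 small RNA pathway genes Drosha alone was called (0.18), and that call was lost in 15 of 20 settings.

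**Figure D3:**
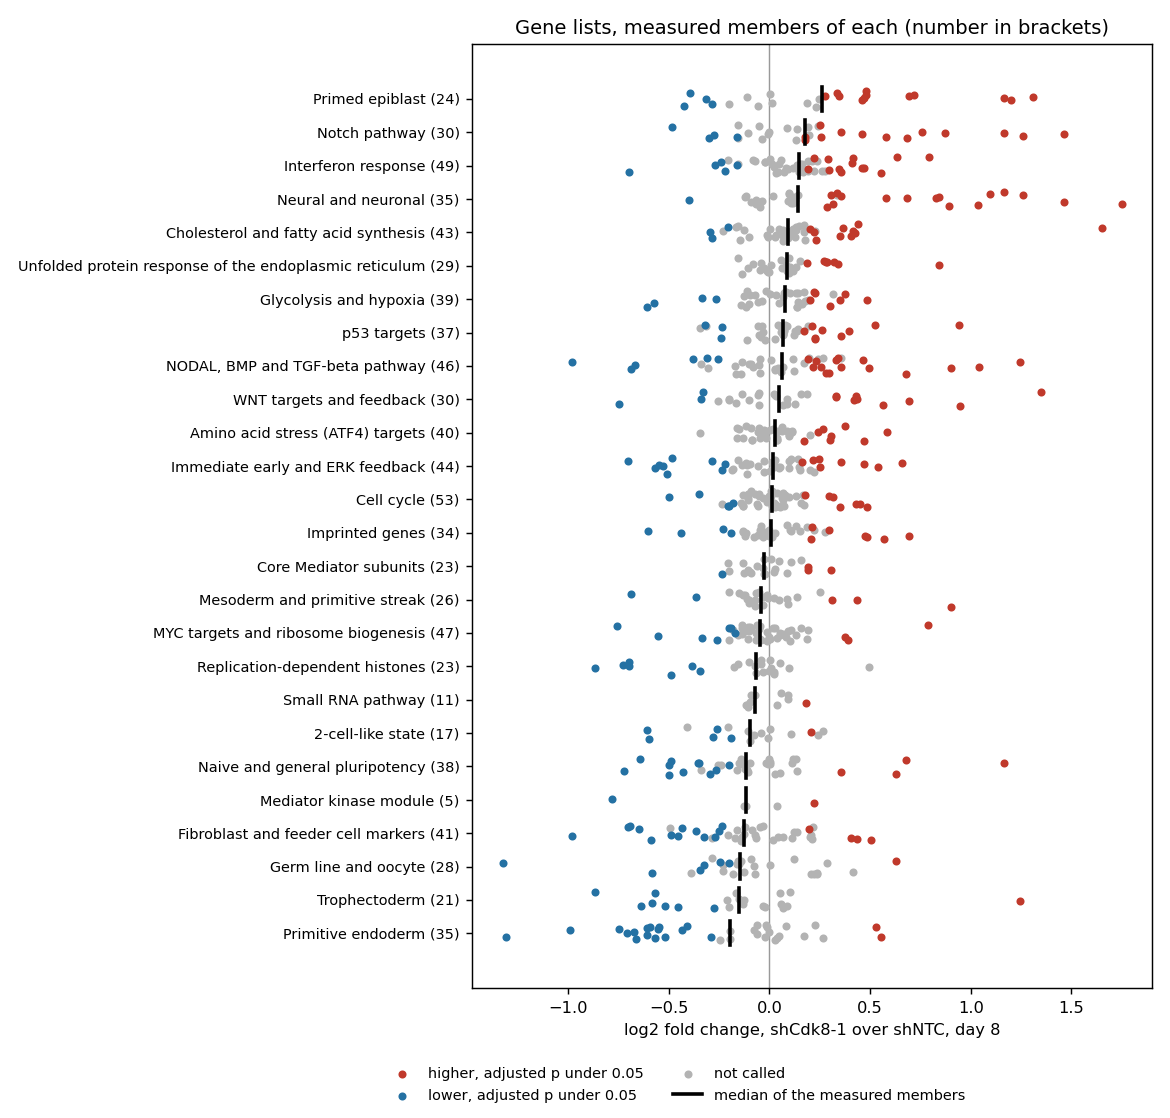
Log2 fold change of shCdk8-1 over shNTC on day 8 for every measured member of the 26 gene lists, 1 point per gene, coloured by the call, with the list median as a black bar; lists run from the highest median to the lowest. Primed epiblast and Notch genes stand at the top with medians of 0.26 and 0.18, and trophectoderm and primitive endoderm genes at the bottom with -0.15 and -0.20.

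Markers of other cell types moved with some of these groups, and in bulk RNA fewer cells of a type cannot be told apart from less of the RNA per cell. Of 11 measured primitive endoderm markers 7 were lower and 1 higher, and their mean log2 ratio was -0.49 to -0.46 in shCdk8-1 arrays and -0.18 to -0.13 in shNTC arrays. Neural markers averaged 0.69 to 0.78 in shCdk8-1 arrays and 0.41 to 0.44 in shNTC arrays, with 2 of 6 higher (Nes and Map2). Fibroblast or feeder cell markers averaged -4.76 to -4.30 in shCdk8-1 arrays and -4.63 to -4.03 in shNTC arrays, so the ranges overlapped, and 2 of 12 were higher and 3 lower. In the longer list of fibroblast and feeder genes 13 of 41 fell and 4 rose, among them Tagln (-0.69), S100a6 (-0.65) and Pdgfrb (-0.59). Blood cell markers averaged -2.84 to -2.19 in shCdk8-1 arrays and -3.04 to -2.66 in shNTC arrays with none of 3 called. Their part in the results above was not tested.

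Of 13731 tested genes with a symbol, some were well above background on all arrays of 1 group and on none of the other. There were 71 in shCdk8-1 alone and 4 in shNTC alone. The arrays themselves differed in detection. Spots well above background in Cy5 made up 71.2%, 76.1% and 67.8% on shCdk8-1 arrays and 67.4%, 65.4% and 68.2% on shNTC arrays. The part of this in the 2 counts was not tested. Fabp7, a fatty acid carrier of radial glia, was at 0.80, 0.81 and 0.80 in shCdk8-1 arrays and at -0.31, -0.77 and -0.45 in shNTC arrays, and was called higher with shCdk8-1 (adjusted p = 3.7e-09). No fold is given for these genes, since they were not well above background in 1 of the groups. S100a8 was at -2.49, -0.03 and -1.85 in shCdk8-1 arrays and at -2.75, -3.11 and -2.75 in shNTC arrays, and was not called (adjusted p = 0.28). Tfap2d (adjusted p = 0.14) and Olfr653 (adjusted p = 0.11) were not called either, nor were Slc24a1, Ncmap, Tlx1 and Tmem45b, the genes measured in shNTC alone (adjusted p between 0.063 and 0.29).

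The second hairpin against Cdk8 allowed shCdk8-1 to be set directly against shCdk8-2 on day 8. The shCdk8-2 arrays of day 8 lay on slides 7, 8 and 1, so here too no slide held both groups. Between them 2399 genes (10.7%) were called higher with shCdk8-1 and 2811 (12.6%) lower, 23.3% in all. The count of 5210 was 2962 when only the arrays compared were fitted, 2417 with a replicate block, 1647 with median centring and 1574 with slide as a block. This comparison uses the same shCdk8-1 arrays as the one with shNTC. Cdk8 itself was lower with shCdk8-1, by 0.47 on the log2 scale (adjusted p = 0.00025), than with shCdk8-2, whose arrays read -0.88, -0.86 and -0.73.

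For Stac3, Prickle1 and Glod5, among the largest increases with shCdk8-1, shCdk8-2 was not called apart from shNTC (adjusted p = 0.50, 0.77 and 0.33). Stac3 was at -0.89, -0.92 and -0.93 in shCdk8-2 arrays, 2.11 below shCdk8-1 (adjusted p = 1.5e-12), and Prickle1 at -0.26, -0.27 and -0.15, 1.75 below shCdk8-1. Glod5 exceeded its shCdk8-2 level by 1.45. Acss1 exceeded it by 1.31 and was higher than in shNTC arrays with both hairpins, by 1.65 with shCdk8-1 and 0.34 with shCdk8-2. For Foxa2, Aqp8, Fbp1 and Tnfrsf25 the hairpins stood on opposite sides of the control, each called. Fbp1, the gluconeogenic bisphosphatase gene, differed from shNTC by 0.90 with shCdk8-1 and -0.43 with shCdk8-2, and the death receptor gene Tnfrsf25 by 0.71 with shCdk8-1 and -0.54 with shCdk8-2. Foxa2 was at 2.39, 2.32 and 2.26 in shCdk8-1 arrays, at 0.43, 0.38 and 0.50 in shCdk8-2 arrays and at 1.79, 1.82 and 1.76 in shNTC arrays. The difference between hairpins was 1.89 for Foxa2 (adjusted p = 7.5e-15) and 1.86 for Aqp8 (adjusted p = 1.1e-12). Among genes lower with shCdk8-1, the matrix protease inhibitor gene Reck was at -1.15, -1.18 and -1.15 in shCdk8-1 arrays, 0.01, 0.33 and 0.29 in shCdk8-2 arrays and -0.62, -0.51 and -0.45 in shNTC arrays, a difference between hairpins of -1.37. Kcnj4 differed by -1.05 and Reep4 by -1.04, and neither was called apart from shNTC with shCdk8-2. For Reck, Vamp3, Tnnt1, 2610528J11Rik and Fam13c both hairpins were called, on opposite sides of the control. Vamp3, a vesicle fusion gene, differed from shNTC by -0.73 with shCdk8-1 and 0.39 with shCdk8-2, and the troponin gene Tnnt1 by -0.40 with shCdk8-1 and 0.61 with shCdk8-2. 2610528J11Rik differed from shNTC by -0.35 with shCdk8-1 and 0.77 with shCdk8-2, and Fam13c by -0.25 with shCdk8-1 and 0.75 with shCdk8-2. The calls of 2610528J11Rik and Fam13c against shNTC with shCdk8-1 were each lost in 8 of 20 settings. That of Vamp3 was lost with slide as a block (-0.44, adjusted p = 0.11), though a further probe fell by 0.53. The shCdk8-2 arrays of Vamp3 were uneven, at -0.75, -0.60 and 0.02. Further probes of Fam13c (0.11) and Tnfrsf25 (0.17) were not called with shCdk8-1.

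Other genes moved with shCdk8-1 to a level near that of shCdk8-2. Slc52a3 differed by -0.03 between hairpins (adjusted p = 0.81), Pdzd3 by -0.03 (adjusted p = 0.79), Sp8 by 0.02 (adjusted p = 0.89) and Bmp4 by -0.01 (adjusted p = 0.95). Fgf5 was at 2.30, 2.35 and 2.45 in shCdk8-2 arrays, 0.23 below shCdk8-1, a difference that was not called (adjusted p = 0.20). Intermediate cases were Sall2 (0.40 higher with shCdk8-1, adjusted p = 4.2e-05), Dll1 (0.50 higher, adjusted p = 0.00021) and Khdc3 (-0.56, adjusted p = 8.8e-05). A missed call does not show that the hairpins act alike.

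In the fit reported here the hairpins differed in primitive endoderm, 2-cell-like and amino acid stress genes, each list read against the 10.7% higher and 12.6% lower of all genes. List counts against shCdk8-2 are not given for slide as a block or median centring, which left 1574 and 1647 of the 5210 calls over all genes. Of 35 primitive endoderm genes, 21 were higher with shCdk8-1 than with shCdk8-2 and 2 lower. Gata6 was 0.70 higher than in shCdk8-2 arrays, which read -2.71, -2.63 and -2.54, and Sparc was 0.76 higher and Col4a1 0.86 higher, so these genes stood between shCdk8-2 and the control. Of 17 genes of the 2-cell-like state 11 were higher and none lower than with shCdk8-2. Of 40 ATF4 targets 2 were higher and 20 lower than with shCdk8-2, Gpt2 among the lower ones (-0.40, adjusted p = 2.3e-05). Of 44 immediate early genes 17 were higher and 5 lower, led by Ier5, which was at -3.95, -3.81 and -3.77 in shCdk8-1 arrays and at -4.89, -4.92 and -4.97 in shCdk8-2 arrays. The neural list had 13 of 35 higher and 1 lower, and the Notch list 8 of 30 in each direction.

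**Figure D4:**
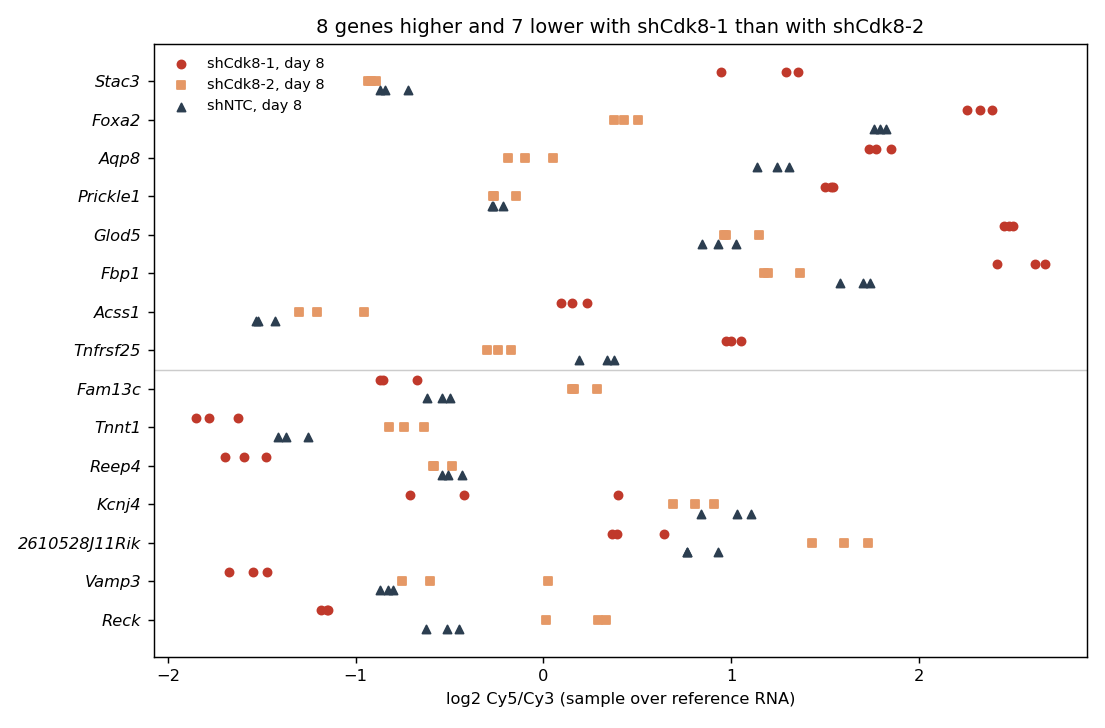
Log2 Cy5/Cy3 on each day 8 array for the 8 genes most raised (top) and 7 of the 8 most lowered (bottom) with shCdk8-1 relative to shCdk8-2, with shCdk8-1 (circles), shCdk8-2 (squares) and shNTC (triangles). Only genes that were also called against shNTC in the same direction, and whose shCdk8-1 and shCdk8-2 arrays do not overlap, were ranked. For Stac3, Prickle1 and Reep4 the shCdk8-2 arrays lie close to the shNTC arrays, while for Foxa2, Aqp8 and Reck they lie on the far side of them.

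The day 13 arrays, which have their own shNTC arrays, give the change of these genes against that control with the same hairpin. Day 8 values chose the genes, so the sizes on the 2 days are set side by side as a description. On day 13, 2079 genes (9.28%) were called higher and 2024 (9.04%) lower. All 15 of the genes with the largest increase were called higher again, with changes between 0.46 and 1.80 and a median of 0.81, against a median of 1.35 on day 8. Of the 15 with the largest decrease 9 were called lower again and 1, Prss23, higher, with a median of -0.65, against -1.01 on day 8. Nsg2 (1.80), Khdc3 (-1.66), Reep4 (-1.16) and Slc9b2 (-1.16) stood farther from the control on day 13 than on day 8, and Tmprss5 (1.24) and Rbp4 (-0.99) almost as far, but none of these differences between days was called.

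The change between the days was itself called for 384 genes (1.71%), 264 of them (1.18%) with a higher effect on day 13 and 120 (0.536%) with a lower one. That count was 123 with the background fitted on all spots and 83 with median centring. Prickle1 differed from the control by 1.78 on day 8 and by 0.59 on day 13, and Btbd17 by 1.75 on day 8 and 0.46 on day 13. A smaller effect need not mean a lower level with shCdk8-1, since shNTC values differed between the days too. Mean log2 ratios of Prickle1 on days 8 and 13 were 1.53 and 0.44 with shCdk8-1 and -0.25 and -0.15 with shNTC. Those of Btbd17 were 2.39 and 1.83 with shCdk8-1 and 0.64 and 1.36 with shNTC. Those of Hes6 were 1.57 and 1.55 with shCdk8-1 and 0.11 and 0.58 with shNTC. Several genes turned to the other side of the control. Prss23 differed from the control by -1.08 on day 8 and by 0.98 on day 13, and the smooth muscle actin gene Acta2 by -0.36 on day 8 and 1.39 on day 13. Tagln (-0.69 on day 8, 0.59 on day 13), Igf2 (-0.60 and 0.34) and Phlda1 (-0.57 and 0.37) stood above the control on day 13. Aqp8 differed from the control by 0.56 on day 8 and by -0.61 on day 13. F3 differed by -1.31 on day 8 and by 0.22 on day 13, where it was not called (adjusted p = 0.11). The fibroblast and feeder list, to which Tagln and Acta2 belong, had a median of -0.13 on day 8 and 0.31 on day 13, and its part in these reversals was not tested.

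**Figure D5:**
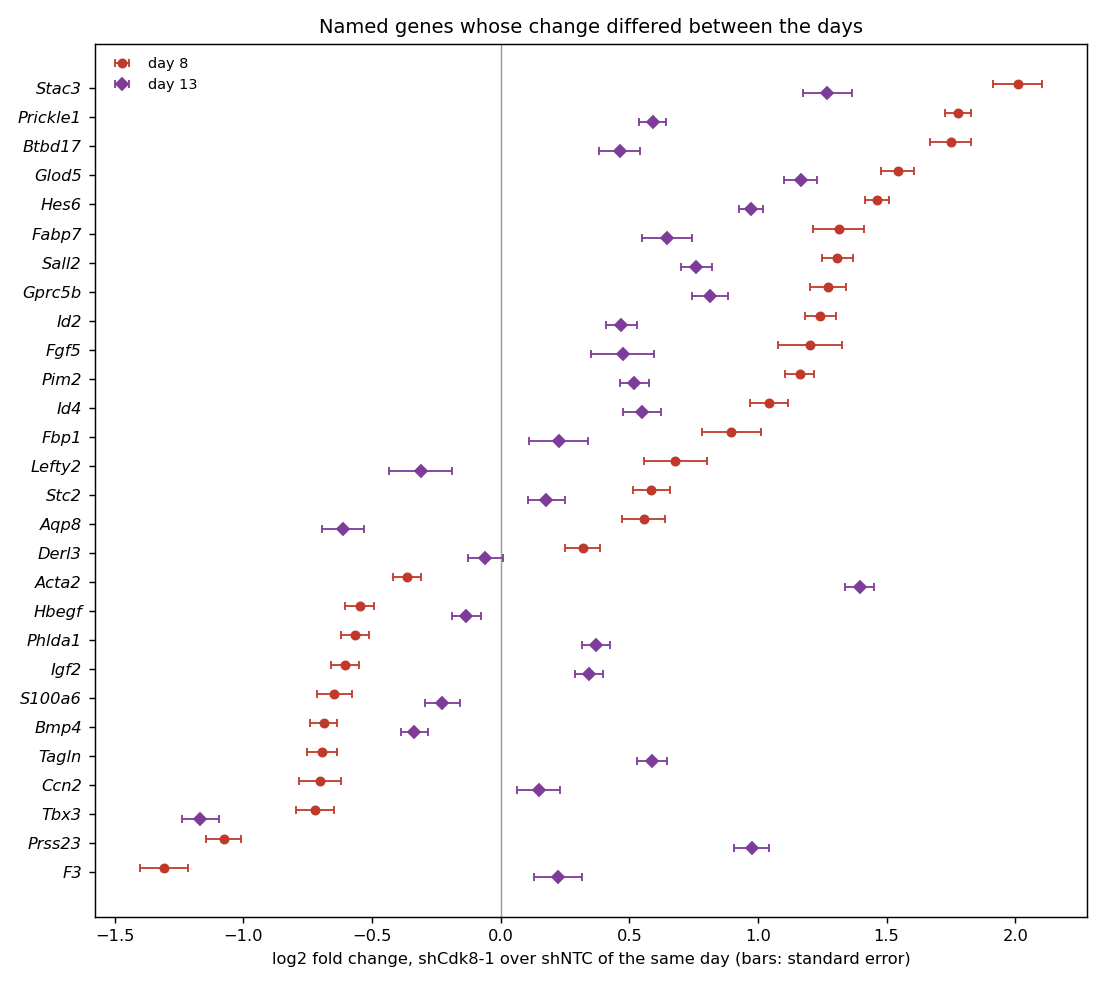
Log2 fold change of shCdk8-1 over shNTC of the same day on day 8 (circles) and day 13 (diamonds), with the standard error of the fit, for 28 named genes whose change differed between the days. Raised genes such as Prickle1 and Btbd17 stood nearer to the control on day 13, and Prss23, Acta2 and Tagln changed side.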

How the data were processed

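Per the labels' protocols, cRNA of the cells was labelled with Cy5 and a universal mouse reference with Cy3, without dye swaps. Per the submitters' processing notes, Agilent Feature Extraction 10.7 was used. Scanner files as deposited hold unnormalized median spot and background intensities and, per the file headers, a log10 ratio made by Feature Extraction. Log2 ratios in the authors' value table had a slope of 1.00 on the scanner ratios and column medians from -0.0049 to 0.12, and served as an alternative.

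Background was handled by normexp (offset 50), with its model fitted on spots without outlier marks and with those under the 0.5th percentile left out. This made the fitted spread nearly 0, so the correction was in effect subtraction plus the offset, and an alternative without trimming, added after seeing the data, changed no named call. Log2 ratios were normalized by loess within arrays and fitted with limma 3.58.1 in R 4.3.3, with data.table (version 1.17.8) for reading, with 8 group means over 24 arrays (16 residual degrees of freedom) and two-sided Benjamini-Hochberg adjusted p-values over 22394 genes. A probe was kept if some group had it well above background in Cy5 on each of its arrays, and the brightest of several probes stood for a gene. The fit was checked on simulated data with known changes. The number of arrays limits the precision. Probes were named through RefSeq accessions (GRCm38.p6), 22951 of 41174 with a symbol.

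The members, gene lists and tests were chosen with earlier results of these data known. Named genes are the kinase module, 6 pluripotency factors, the 15 highest and 15 lowest called genes whose groups do not overlap, the 8 highest and 8 lowest against shCdk8-2, up to 4 genes in each direction well above background in only 1 group, and up to 4 called members per list. Those against shCdk8-2 were ranked only among genes called in the same direction against shNTC and against shCdk8-2. Larger differences between the hairpins in other genes were thus left out. A few genes that these rules name are not reported here. Other list members named beside a count were chosen after their values were seen. Replicate numbers did not pair the arrays: same-numbered deviations correlated at 0.23, 0.04 and -0.02 between shCdk8-1 and shNTC.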

Additional observations from a re-analysis of the deposited data

Results flagged for a closer look

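For 28 named genes the effect of shCdk8-1 differed between the days, by a test of the day 13 effect minus the day 8 effect in limma (adjusted p under 0.05, against 1.71% of all genes). Most were chosen by their day 8 values. Among genes raised on day 8, the effect on day 13 was lower, on the log2 scale, for Stac3 (-0.74), Prickle1 (-1.19), Btbd17 (-1.29), Glod5 (-0.38), Hes6 (-0.49), Sall2 (-0.55), Gprc5b (-0.46), Id2 (-0.77), Fgf5 (-0.73), Fabp7 (-0.67), Id4 (-0.49), Pim2 (-0.64) and Fbp1 (-0.67). Lefty2 (-0.99), Aqp8 (-1.17), Stc2 (-0.41) and Derl3 (-0.38) had lower effects on day 13 too. Tbx3, lower than the control on both days, was farther from it on day 13 (-0.45).

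The effect on day 13 was higher for F3 (1.53), Prss23 (2.05), Bmp4 (0.35), Ccn2 (0.85), Phlda1 (0.94), Hbegf (0.41), Igf2 (0.95), Acta2 (1.76), Tagln (1.28) and S100a6 (0.42), all of them lowered on day 8. Acta2, Tagln, S100a6 and Ccn2 stand in the fibroblast and feeder list. No slide held shCdk8-1 and shNTC arrays of the same day together, on day 8 or on day 13. With slide as a block 228 genes, in place of 384, differed between the days.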

How the results depend on the processing

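Under 20 alternative settings, 1 of them chosen after seeing the data, the count of 4817 called genes was within 1.5 times except with median centring (1683) and with slide as a block (1962). Called changes of at least 2-fold, 53 genes, were 225 with the Feature Extraction ratio, 233 with the authors' value table and 81 with Cy5 alone. The 5210 genes that differ from shCdk8-2 were 1647 with median centring, 2962 with only the arrays compared, 1574 with slide as a block and 2417 with a replicate block. The 384 genes whose effect differs between days were 123 with the background fitted on all spots, 83 with median centring, 228 with slide as a block, 234 with a replicate block and 692 with array weights. Called list members, 262, were 132 with median centring and 149 with slide as a block. The replicate block left 3665 calls for shCdk8-1 against shNTC, and 1 of 3 replicates correlated best with its own number, so the numbers were not taken to pair the arrays. Without each replicate in turn these counts ran from 3693 to 4215, 55 to 66, 3882 to 5063, 274 to 404 and 228 to 244, and the fall of Cdk8 from -0.90 to -0.69, always called.

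Some named genes that were not called in the fit reported here changed sign (values are log2 changes against shNTC). Cdk19 was at 0.33 with Cy5 alone, where limma called it higher (adjusted p = 0.031). Ccnc was at -0.039 with median centring and -0.13 with the mean of its probes, and between -0.055 without shCdk8-1 replicate 3 and 0.088 without shCdk8-1 replicate 1. Sox2 was at -0.59 with the background fitted on all spots, -0.17 with the Feature Extraction ratio and -0.17 with the authors' table, -0.043 with median centring, -0.14 with Cy5 alone, -0.0033 with slide as a block, and, leaving out 1 array, between -0.11 without shCdk8-1 replicate 2 and 0.17 without shNTC replicate 2, with -0.0054 without shNTC replicate 1 and -0.0070 without shNTC replicate 3. S100a8 was at -1.03 with slide as a block. The cause of these changes was not tested. Aquantile after loess leaves log ratios as they are and so changed nothing. The 130 results on named genes include genes that were not called in the fit reported here. Among the called ones, 26 were no longer called with slide as a block and 22 with median centring.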
